A study of Mus musculus with 6 samples.

Results

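The genes described here encode the respiratory chain and the ATP synthase of mitochondria, the machinery of oxidative phosphorylation. They were chosen by name: symbols beginning with Nduf, Uqcr, Cox4 to Cox8 or Atp5, the 4 Sdh subunit genes, Cyc1, and the mt-Nd, mt-Co, mt-Cytb and mt-Atp genes of the mitochondrial genome. The table of 41254 gene symbols held 109 such names, and 108 were kept, of which 95 are nuclear and 13 mitochondrially encoded. Cox4i1, the common form of a complex IV subunit, was left out because its locus carries the status the authors' software gives where too many fragments lie for an estimate. Its fragments were listed at 0 in the 3 wild-type libraries and at 12227, 12021 and 11817 in the transgenic ones. Such a 0 is a failed estimate, and no difference is drawn from it.

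The libraries were made from DN3a thymocytes of adult C57BL/6 mice, immature T cell precursors at the stage where the T cell receptor beta locus is rearranged. The study compared 3 wild-type libraries with 3 from mice labelled Tg_Cd2_GATA3, which carry a GATA3 transgene whose label names Cd2; the sources used here say nothing more of the construct. Values for a group are given in the order of replicates 1, 2 and 3 throughout. Both groups share the strain, the stage and the preparation, which was total RNA depleted of ribosomal RNA. The labels do not say that the libraries of a group came from separate animals, so the p-values below measure the spread between these samples, which may be partly technical. Wild-type replicate 1 and transgenic replicate 3 alone held many fragments of Y-linked genes, so the libraries of a group did not all come from the same mice. In such bulk samples, fewer cells of a kind and less RNA per cell cannot be told apart.

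Electrons from NADH enter the chain at complex I and those from succinate at complex II, and pass through complex III and cytochrome c to oxygen at complex IV. Complexes I, III and IV pump protons across the inner membrane, and complex V uses the gradient to make ATP. Complexes I, III, IV and V combine subunits from both genomes, while complex II is wholly nuclear. In mammals the mitochondrial genes are read as long transcripts from both strands of the circular genome and are then cut apart, so their RNA levels are set by a polymerase and processing factors separate from those of the nucleus. Thymocytes divide rapidly around beta selection, and dividing T cells are known to build up mitochondria.

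The wild-type libraries held 45469459 to 46985605 fragments and the transgenic ones 39022281 to 42016334, so each transgenic library was shallower than each wild-type one. Gata3, the transgene's gene, ranged from 38.2 to 49.1 CPM (counts scaled to the library's size) in the wild-type libraries and from 53.6 to 61.6 CPM in the transgenic ones. The 14 DN3 marker genes had sums between 11424 and 13383 CPM in the wild-type group and between 12643 and 13515 CPM in the transgenic group, and none was at 0. Wild-type replicate 1 and transgenic replicate 3 contained 18522 and 16840 fragments of Y-linked genes, against 16 to 26 in the other 4 libraries. Of 14653 genes tested, edgeR's quasi-likelihood test with Benjamini-Hochberg adjustment called 2 (0.0136%), both higher in the transgenic group.

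The nuclear respiratory chain genes lay lower in the transgenic libraries as a body, by small amounts, and none of them passed the adjusted test on its own. Of 88 nuclear genes with enough fragments to be tested, 77 had a log2 fold change (transgenic over wild type) below 0, with a median of -0.13 and a range of -0.63 to 0.17. Over all 14653 genes tested, 7293 lay below 0 and the median was 0.0011. Among the 9034 genes with a mean of at least 10 CPM, 4704 lay below 0 and the median was -0.0065. The 84 nuclear respiratory chain genes at that level had 76 below 0 and a median of -0.13. Their individual values ran from -0.35 for Ndufaf5 to 0.08 for Ndufa7. At an unadjusted p under 0.05, 28 of the 88 nuclear genes lay lower and 0 higher. With the mitochondrially encoded genes these counts were 31 and 0 of 100. The share of all genes that lay lower by that rule was 7.7%, and it was 11.2% among genes with at least 10 CPM. For 31 of the 88 nuclear genes each transgenic value lay below each wild-type value, against 10.1% of all genes tested and 13% of those with at least 10 CPM.

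Adjusted over all genes by edgeR's quasi-likelihood test, 0 of the 100 members passed 0.05, and the smallest adjusted p was 0.17, for mt-Nd6. DESeq2 called mt-Nd6 alone among them (adjusted p 0.0331), with 3.03% of all genes called lower by that tool. Leaving out wild-type replicate 1 gave calls for Atp5b, Atp5g3 and Atp5o (2.32% of all genes called lower), and a covariate for Y-linked RNA gave calls for Atp5a1 and Atp5b (1.4% called lower). The count of members lower at an unadjusted p under 0.05 varied with the library left out. It was 42 of 101 tested when wild-type replicate 1 was left out (10.1% of all genes), 8 of 101 for wild-type replicate 2 (4.49%) and 18 of 101 for wild-type replicate 3 (4.97%). It was 28 of 102 when transgenic replicate 1 was left out (6.72% of all genes), 25 of 102 for transgenic replicate 2 (6.96%) and 13 of 101 for transgenic replicate 3 (5.07%).

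**Figure D1:**
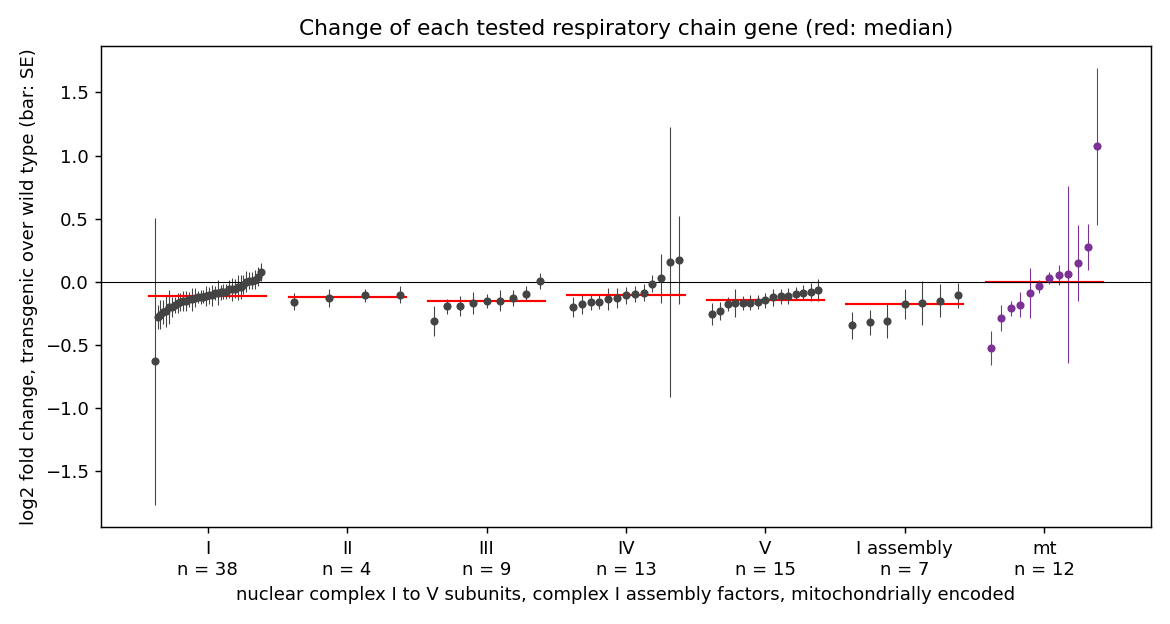
Each point is 1 tested gene and shows its log2 fold change, transgenic over wild type, with its standard error, grouped by complex (nuclear subunits), complex I assembly factors and mitochondrially encoded genes (mt); red lines are medians. The medians of the nuclear groups lie between -0.11 and -0.18, and the mitochondrially encoded genes spread to both sides of 0, with a median of -0.0032.

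Summed over all 95 nuclear genes, the wild-type libraries held 11433, 12550 and 12009 CPM and the transgenic libraries 11156, 11276 and 10471 CPM. All 3 transgenic libraries were below all 3 wild-type libraries, and wild-type replicate 1 was the closest of its group to them. The means were 11997 ± 559 and 10968 ± 435 CPM (SD, n = 3 each), a difference of -8.58%. The exact two-sided permutation test gave p = 0.1, the smallest p that 3 libraries against 3 can give. Without wild-type replicate 2 the log2 difference was -0.1, without wild-type replicate 1 it was -0.16, and without the 2 libraries that hold Y-linked RNA it was -0.13. These genes took 1.14% to 1.24% of all fragments in wild-type and 1.06% to 1.13% in transgenic libraries.

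Complex V, the ATP synthase, held the most abundant nuclear members, and its 15 nuclear subunits all had fold changes below 0, with a median of -0.15. Atp5b encodes the catalytic beta subunit of its F1 head and was the highest nuclear gene of the chain, at 1115 FPKM, a level scaled by transcript length and depth, averaged over the 6 libraries. It stood at 1822, 2018 and 1963 CPM in wild-type and 1711, 1801 and 1657 CPM in transgenic libraries. The groups did not overlap, with transgenic replicate 2 just under wild-type replicate 1. Its log2 fold change was -0.17 ± 0.055 (SE), with an adjusted p of 0.243. Atp5a1 encodes the alpha subunit of the same head. It read 1262, 1396 and 1328 CPM in wild-type against 1228, 1204 and 1131 CPM in transgenic libraries, again with no overlap, for a log2 fold change of -0.16 ± 0.056 and an adjusted p of 0.261. Atp5o encodes the stalk protein that confers oligomycin sensitivity and had the smallest p of the complex. Its wild-type libraries held 183, 218 and 206 CPM and its transgenic libraries 166, 182 and 168 CPM, so that transgenic replicate 2 lay just under wild-type replicate 1. The log2 fold change of Atp5o was -0.23 ± 0.072, with an adjusted p of 0.216.

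The membrane ring of complex V is built from one small protein, subunit c, that 3 genes encode with different import signals. Atp5g1, Atp5g2 and Atp5g3 shared its mRNA almost evenly in wild-type libraries, at 32% ± 1.18, 35.3% ± 0.6 and 32.6% ± 1.07 of their summed FPKM (SD, n = 3). In transgenic libraries the shares were 32.4% ± 1.12, 36.2% ± 1.62 and 31.4% ± 1.95, within the spread between libraries. Atp5g1 measured 153, 166 and 150.3 CPM in wild-type and 135, 141 and 139 CPM in transgenic libraries (log2 fold change -0.18 ± 0.055, adjusted p 0.217). Atp5g2 averaged 148 and 132 CPM (-0.17 ± 0.061) and Atp5g3 137 and 115 CPM (-0.26 ± 0.086), with overlap between the groups for Atp5g3. Over the 15 subunits, 10 had groups that did not overlap and 7 an unadjusted p under 0.05, all lower. Of all genes tested, 10.1% and 7.7% lay lower by these rules, and 13% and 11.2% of those with at least 10 CPM. The value nearest 0 was that of Atp5e, the epsilon subunit, at -0.07. The summed CPM of the 15 averaged 5476 ± 294 in wild-type and 4925 ± 207 in transgenic libraries, a difference of -10.1% (exact p = 0.1). Their mean log2 level, set to 0 over all libraries, overlapped between the groups. It was -0.021 in wild-type replicate 1 and -0.0176 in transgenic replicate 2.

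The other nuclear names begin with Atp5 without being subunits. Atp5s, a factor linked to ATP synthase coupling, had a log2 fold change of 0.03 ± 0.23 at 4.14 to 6.66 CPM. Atp5sl, which GENCODE names Dmac2, was at -0.0053 ± 0.1. The pseudogenes Atp5l-ps1, Atp5l-ps2 and Atp5l2-ps had too few fragments to be tested, with at most 0.28 CPM in any library.

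Complex I is the largest complex, and 32 of its 38 nuclear genes had fold changes below 0, with a median of -0.11. Of these 9 had an unadjusted p under 0.05 and 11 had groups that did not overlap. Among all genes tested, 7.7% and 10.1% lay lower by these rules, and 11.2% and 13% of those with at least 10 CPM. Ndufa8, an accessory subunit with disulfide-bonded helices, had the smallest p. It read 42.2, 47 and 42.9 CPM in wild-type and 38.9, 37.6 and 32.4 CPM in transgenic libraries, each transgenic value below each wild-type value. Its log2 fold change was -0.28 ± 0.094, with an adjusted p of 0.25. Ndufa9, an accessory subunit next to the quinone site, averaged 126 ± 5.36 and 111 ± 8.94 CPM (SD, n = 3 each; -0.19 ± 0.066, adjusted p 0.271). Ndufab1, the mitochondrial acyl carrier protein, averaged 43.9 ± 3.46 and 37.2 ± 3.47 CPM (-0.24 ± 0.098).

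The Ndufs and Ndufv families hold most of the core subunits of the redox arm, which bind the flavin and the iron-sulphur clusters, and some accessory subunits. The 8 Ndufs genes had a median of -0.07 and 0 with an unadjusted p under 0.05 in either direction, and the 3 Ndufv genes a median of -0.08 with 1 such gene, Ndufv2. The 15 Ndufa genes had a median of -0.13 with 4 such genes, and the 10 Ndufb genes a median of -0.11 with 4. The difference between these families was not tested. At that unadjusted p, 7.7% of all genes tested lay lower, and 11.2% of those with at least 10 CPM. The 3 most abundant genes, Ndufa3, Ndufa4 and Ndufa7, gave -0.06, -0.15 and 0.08, all with overlapping groups. Ndufa4, placed here by name, is now known as a subunit of complex IV. Its relative Ndufa4l2, which is induced by hypoxia in other cells, supplied 0.0996% ± 0.0745 of the pair's FPKM in wild-type and 0.0649% ± 0.0653 in transgenic libraries, and rested on 0 to 14 fragments. Summed over the 38 genes, complex I averaged 2881 ± 116 CPM in wild-type and 2687 ± 86.4 CPM in transgenic libraries, a difference of -6.73% (exact p = 0.1).

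The 7 Ndufaf genes encode factors that assemble complex I and do not stay in it. All 7 had fold changes below 0, with a median of -0.18. In 3 of them the groups did not overlap and the unadjusted p was under 0.05, against 10.1% and 7.7% of all genes tested that lay lower by each rule. Among genes with at least 10 CPM these shares were 13% and 11.2%. Ndufaf5 hydroxylates an arginine of a core subunit. It stood at 16.6, 17.9 and 18.2 CPM in wild-type and 13.1, 14.5 and 13.9 CPM in transgenic libraries, a gap wider than the spread within either group. Its log2 fold change was -0.35 ± 0.11, with an adjusted p of 0.214. Ndufaf7, an arginine methyltransferase for another core subunit, stood at 22.3, 24.2 and 25.1 CPM against 17.7, 19.2 and 20.3 CPM (-0.32 ± 0.099, adjusted p 0.214). The third was Ndufaf6, at -0.31 ± 0.14.

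Complex II, succinate dehydrogenase, also works in the citric acid cycle. Its 4 genes lay between -0.16 and -0.1. Sdhb, the iron-sulphur subunit, held 159, 178 and 159.7 CPM in wild-type and 156, 152 and 137 CPM in transgenic libraries (-0.16 ± 0.068, adjusted p 0.348). Sdhd, a membrane anchor and the most abundant of the 4 per length at 146 FPKM, held 159, 166 and 157 against 156, 146 and 146 CPM (-0.11 ± 0.052, adjusted p 0.411). Neither gene's groups overlapped. The other anchor gene Sdhc (-0.13 ± 0.074) and the flavoprotein gene Sdha (-0.1 ± 0.068) had overlapping groups. The complex summed to 774 ± 41.6 CPM and 712 ± 34.5 CPM, with overlap between the groups (exact p = 0.2).

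Complex III passes electrons from ubiquinol to cytochrome c. Of its 9 nuclear genes 8 lay below 0, with a median of -0.15. Uqcrc1, a core protein of the matrix side, measured 191, 201 and 194 CPM in wild-type and 173, 180.1 and 159 CPM in transgenic libraries. The lowest wild-type library was above the highest transgenic one, and the log2 fold change was -0.19 ± 0.059 with an adjusted p of 0.214. Cyc1, the cytochrome c1 that carries the haem, measured 72.9, 80.5 and 82.5 CPM against 64.9, 74.1 and 67.2 CPM (-0.19 ± 0.077, adjusted p 0.312), and transgenic replicate 2 exceeded wild-type replicate 1. Uqcrb, a small subunit at the quinone site, averaged 100.1 ± 5.45 and 90.02 ± 2.12 CPM (-0.15 ± 0.059, adjusted p 0.3). Uqcrq, another small subunit, measured 15.5, 18.8 and 16.8 CPM in the wild-type libraries and 13.1, 13.5 and 14.7 CPM in the transgenic ones. These groups did not overlap, and the log2 fold change was -0.31 ± 0.12 with an adjusted p of 0.299. Uqcrh, the hinge protein, was the most abundant at 430 FPKM, and its level was 425 ± 19.3 FPKM in wild-type and 435 ± 14 FPKM in transgenic libraries (0.0057 ± 0.067 in the count test). Its sign changed when some single libraries were left out. The next in abundance, Uqcr11 and Uqcr10, gave -0.15 and -0.17 with overlapping groups. The sum of the complex differed by -8.12% (exact p = 0.1).

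Complex IV, cytochrome c oxidase, reduces oxygen to water. Of its 17 nuclear names kept here 13 could be tested, of which 10 lay below 0 with a median of -0.11. Of the 13 tested, 4 had an unadjusted p under 0.05 and 2 (15.4%) had groups that did not overlap, all lower. By these rules 7.7% and 10.1% of all genes tested lay lower, and 11.2% and 13% of those with at least 10 CPM. Cox5b, a matrix-side subunit that binds zinc, read 177, 191 and 186 CPM in wild-type and 166, 169.9 and 159 CPM in transgenic libraries, without overlap (-0.16 ± 0.054, adjusted p 0.246). Cox8a, a single-helix membrane subunit, read 115, 128 and 126 against 107, 117 and 106 CPM (-0.16 ± 0.062, adjusted p 0.294), and transgenic replicate 2 lay above wild-type replicate 1. The summed CPM of the complex differed by -7.2% (exact p = 0.1). Its mean log2 level overlapped between the groups, at 0.0344 in transgenic replicate 2 against 0.0261 and 0.018 in wild-type replicates 1 and 3.

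Complex IV is the complex with the most tissue-specific isoforms, and in most of the families that could be read the common form held nearly all of the RNA. Cox6a1 made up 99.6% ± 0.494 of the Cox6a FPKM in wild-type and 99.5% ± 0.0946 in transgenic libraries, and the heart and muscle form Cox6a2 had 0 to 37 fragments. Cox8a made up all of the Cox8 FPKM in the wild-type libraries and 99.9% on average in the transgenic ones, while the muscle form Cox8b had fragments in 1 library. Cox7b2 and Cox8c, known from testis, were at 0 in all 6 libraries, and Cox4i2, a form known from lung, was at 0 in 4 of 6. Cox6b2, a form known from testis, was an exception. It supplied 6.44% ± 0.31 of the Cox6b FPKM in wild-type and 7.1% ± 1.72 in transgenic libraries, at 13.1, 15.3 and 13.6 CPM and 10.2, 18.8 and 13.8 CPM. Transgenic replicates 1 and 2 were the lowest and the highest of the 6, so its share did not differ beyond the spread between libraries.

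Within the Cox7a family the largest share belonged to Cox7a2l, a protein that binds complexes III and IV into supercomplexes. It made up 67.5% ± 0.774 of the family's FPKM in wild-type and 69.2% ± 1.91 in transgenic libraries. The common subunit Cox7a2 made up 31.4% ± 0.679 and 29.6% ± 1.88, and the muscle form Cox7a1 1.04% ± 0.106 and 1.2% ± 0.157. Cox7a2l was among the nuclear genes nearest to 0, at 365, 364 and 327 CPM against 368, 344 and 333 CPM (-0.02 ± 0.065), and its sign turned in some alternatives. Cox7b had the lowest log2 fold change of the complex, at -0.2 ± 0.078 (adjusted p 0.307).

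**Figure D2:**
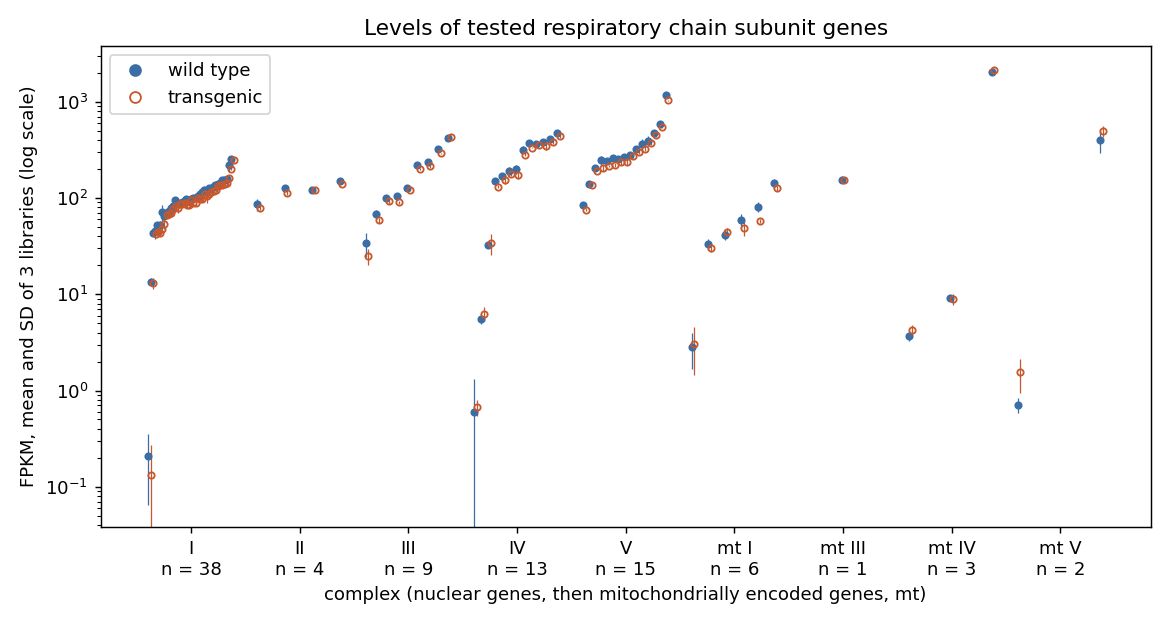
Each pair of points is 1 tested subunit gene, sorted by level within its complex, with the mean FPKM (log scale) and SD of the 3 wild-type (filled) and the 3 transgenic libraries (open). Median levels of nuclear subunits climb from 93.8 FPKM in complex I to 254 FPKM in complex V, and Cox6a2 and Ndufa4l2, at 0.637 and 0.171 FPKM over all libraries, are the lowest nuclear points.

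Per length, the median nuclear subunit stood at 93.8 FPKM in complex I, 121 in complex II, 125 in complex III, 187 in complex IV and 254 in complex V, averaged over the 6 libraries. The level of the highest gene was 251 FPKM in complex I (Ndufa3), 146 in II (Sdhd), 430 in III (Uqcrh), 459 in IV (Cox6b1) and 1115 in V (Atp5b). After Atp5b, complex V was led by Atp5a1 at 568 FPKM and Atp5h, a stalk subunit, at 463 FPKM. The lowest subunit genes of complexes II, III and V were Sdhc at 82.1, Uqcrq at 29.5 and Atp5d at 80.6 FPKM. The sources used here do not say how reads that also match processed copies of these genes were assigned.

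The mitochondrially encoded genes did not share the shift as a body. Of 12 tested, 6 lay below 0 and 6 above, with a median of -0.0032. Of these, mt-Atp6, mt-Co2 and mt-Nd3 above 0 and mt-Co3 below 0 sat almost whole in near-identical nuclear copies, a limit described below. The sum over all mitochondrially encoded genes was 2887, 2746 and 2775 CPM in wild-type and 2769, 2804 and 2883 CPM in transgenic libraries. The means were 2803 ± 74.6 and 2819 ± 58.3 CPM, a difference of 0.566% (exact p = 0.8). The sum is mostly 1 gene. mt-Co1, the catalytic core of complex IV, took 84.1% to 86.1% of these fragments in wild-type and 86.1% to 86.6% in transgenic libraries, and its log2 fold change was 0.03 ± 0.046. With mt-Co1 left out, a choice made after the values were seen, the sum was 402, 436 and 422 CPM in wild-type and 384, 382 and 386 CPM in transgenic libraries. The groups then did not overlap, and the difference was -8.57% (exact p = 0.1). The means were 420 and 384 CPM. Of these the mt-Nd genes held 259 and 224 CPM and mt-Cytb 142 and 138 CPM, so the difference lay mostly in the mt-Nd genes.

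**Figure D3:**
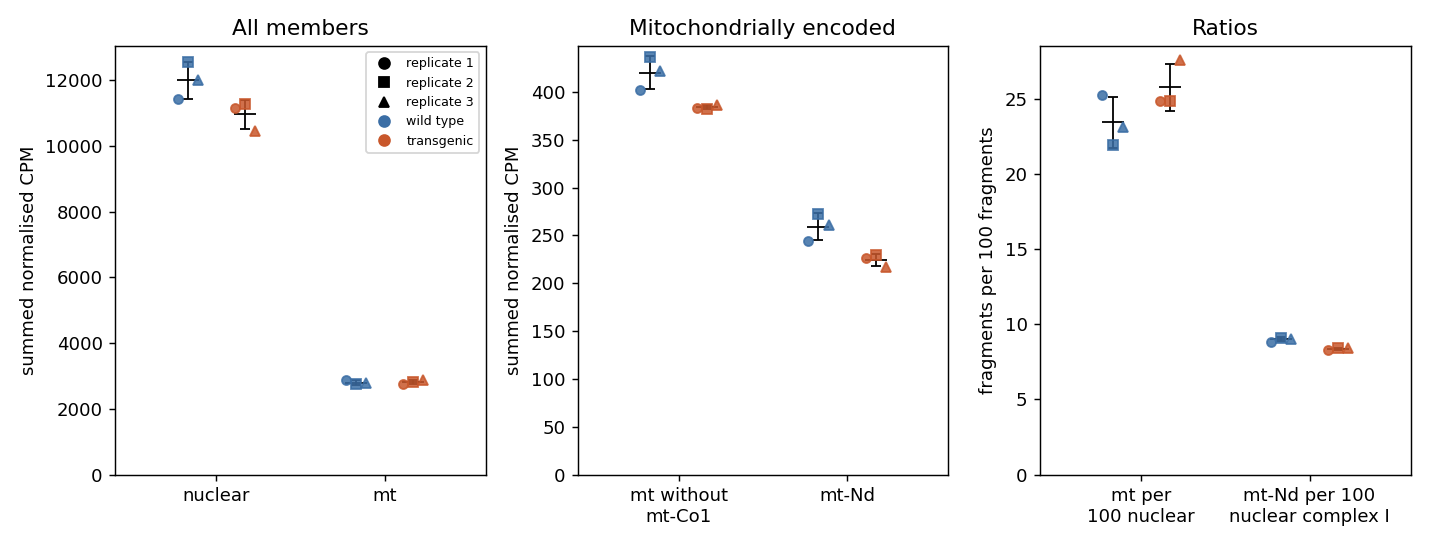
Summed normalised CPM of nuclear and mitochondrially encoded (mt) members, the mt sum without mt-Co1, the 7 mt-Nd genes, and 2 ratios of fragments are plotted for each library; lines and bars are means and SD of 3. Transgenic libraries lie below wild-type ones for the nuclear sum, the mt sum without mt-Co1, the mt-Nd sum and the mt-Nd ratio, while the mt sum with mt-Co1 and the ratio of all mt to nuclear fragments overlap.

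Within the mitochondrial genome, 3 of 12 tested genes lay lower at an unadjusted p under 0.05, against 7.7% of all genes tested. They were the complex I genes mt-Nd6, mt-Nd1 and mt-Nd5, while mt-Nd3 and mt-Nd4 of the same complex lay above 0. mt-Nd6 is the one protein gene on the light strand of mouse mitochondrial DNA, at M:13552-14070 on the minus strand of GRCm38, and encodes a membrane subunit of complex I. It read 13.3, 16.2 and 16.1 CPM in wild-type and 11.1, 9.45 and 11.1 CPM in transgenic libraries, so that each wild-type value exceeded each transgenic one. Its log2 fold change was -0.53 ± 0.13, with an adjusted p of 0.17 in edgeR's quasi-likelihood test. The sources used here do not say whether strand was used in counting, so fragments of mt-Nd6 cannot be told apart from RNA of the opposite strand, and its last 14 bases overlap mt-Nd5.

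mt-Nd1, the membrane subunit nearest the quinone site, lies at M:2751-3707 on the plus strand. It read 86.3, 94.8 and 95 CPM in wild-type and 78, 78.9 and 81.6 CPM in transgenic libraries, again without overlap (-0.21 ± 0.061, adjusted p 0.201). mt-Nd5, a proton-pumping subunit at M:11742-13565, read 84, 98.2 and 87.2 against 78.8, 80.3 and 61.4 CPM (-0.29 ± 0.11, adjusted p 0.279). Transgenic replicate 3 lay well under the other 2 of its group. mt-Nd2, another pumping subunit, averaged 24.4 and 21.5 CPM with overlap (-0.18 ± 0.1). mt-Nd4, the third pumping subunit, averaged 37.4 ± 1.66 and 38.7 ± 0.923 CPM (0.05 ± 0.078). The 6 tested mt-Nd genes had a median of -0.2, with 4 below 0.

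The 7 mt-Nd genes summed to 244, 273 and 261 CPM in wild-type and 226, 229 and 217 CPM in transgenic libraries, a difference of -13.5% without overlap (exact p = 0.1). Per 100 fragments of the nuclear complex I subunits they held 8.84, 9.11 and 9.03 fragments in wild-type and 8.25, 8.39 and 8.39 in transgenic libraries. The 2 groups were apart here too, by -7.23% (exact p = 0.1), a ratio that does not depend on how libraries are scaled. Per 100 fragments of mt-Co1 they held 9.82, 11.8 and 11.1 against 9.49, 9.47 and 8.69, a difference of -15.5% (exact p = 0.1).

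mt-Cytb, the mitochondrial subunit of complex III, averaged 142 ± 3.17 CPM in wild-type and 138 ± 5.51 CPM in transgenic libraries (-0.04 ± 0.051). Set against mt-Co1 it held 5.58, 6.2 and 6.15 fragments per 100 in wild-type and 5.71, 5.55 and 5.8 in transgenic libraries, with overlap (exact p = 0.3). mt-Atp8, a short membrane subunit of complex V, averaged 11.7 ± 2.43 and 14.2 ± 2.33 CPM (0.27 ± 0.18). All mitochondrial fragments per 100 nuclear ones were 25.3, 21.9 and 23.1 in wild-type and 24.8, 24.9 and 27.5 in transgenic libraries, means of 23.4 ± 1.71 and 25.7 ± 1.55 (exact p = 0.3). Without mt-Co1 the log2 difference of that ratio was 0.0007, with most of the mitochondrial fragments left then in the mt-Nd genes. The 2 mitochondrial ribosomal RNAs, which the depletion step also targets, summed to 1265, 1429 and 1334 CPM against 1497, 1357 and 1530.3 CPM, with overlap (exact p = 0.2).

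The levels of the mitochondrial genes in these files spanned a range that sets limits on their use. Averaged over the 6 libraries, mt-Co1 had 66840 fragments per kilobase, mt-Cytb 5267, mt-Nd1 3864, mt-Atp8 2708, mt-Nd5 1935, mt-Nd4 1183, mt-Nd6 1077 and mt-Nd2 951. The other 5 had 259 (mt-Co3), 119 (mt-Co2), 44.1 (mt-Nd3), 28.6 (mt-Atp6) and 19.1 (mt-Nd4l) per kilobase. Those 5 are the genes that sit almost whole in a nuclear copy: 99% to 99.9% of their bases align at 99% identity or more with nuclear transcripts of GENCODE M21, all in a block on chromosome 1 between 24611535 and 24616197 on the minus strand. The share was 63.6% for mt-Nd4, 31.3% for mt-Co1 and 21.1% for mt-Atp8, and 0 for mt-Cytb, mt-Nd1, mt-Nd2, mt-Nd5 and mt-Nd6. How reads that match both places were handled is not given, and their part in these levels was not tested. The nuclear copies were themselves listed with 0 to 317 fragments per library, the most for Gm28437, the copy of mt-Co3.

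The following 60 bases, positions 445 to 504 of mt-Co2, show how closely gene and copy match. The first line is the mitochondrial gene (M:7457-7516, plus strand), the second its chromosome 1 copy Gm28661 (1:24615062-24615121, minus strand), identical over the window, and the third a more distant copy, Gm13341 (2:22587471-22587530, minus strand), with its 6 differing bases in capitals. The sequences are from the GENCODE M21 transcripts on GRCm38.
mt-Co2: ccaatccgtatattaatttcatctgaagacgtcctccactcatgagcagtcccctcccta
Gm28661: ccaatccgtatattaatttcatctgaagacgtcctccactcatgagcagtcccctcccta
Gm13341: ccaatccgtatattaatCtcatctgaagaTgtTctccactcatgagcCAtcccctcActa

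These limits bear most on the 5 lowest genes. mt-Atp6, the proton channel of complex V, had 11, 15 and 15 fragments in wild-type and 27, 14 and 35 in transgenic libraries, and its log2 fold change of 1.07 ± 0.62 rests on those few (adjusted p 0.508). mt-Nd3 had 6 to 23 fragments (0.06 ± 0.7), mt-Co2 70 to 93 (0.15 ± 0.3) and mt-Co3 a mean of 203 (-0.09 ± 0.2). mt-Nd4l, with 0 to 12 fragments, was not tested. Among the 6 tested genes with the smallest share of bases in a near-identical copy (mt-Cytb, mt-Atp8, mt-Nd1, mt-Nd2, mt-Nd5 and mt-Nd6), 5 lay below 0 and the median was -0.2.

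**Figure D4:**
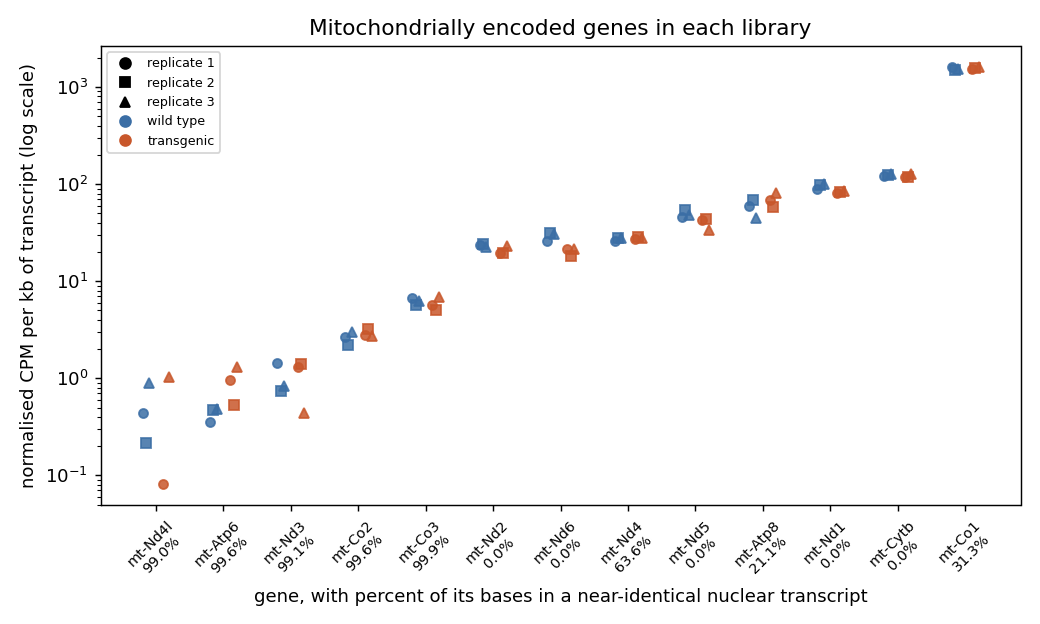
Each point is the normalised CPM per kilobase of 1 mitochondrially encoded gene in 1 library (log scale), with genes in order of level and, under each name, the percent of its bases that lie in a near-identical nuclear transcript; the library in which mt-Nd4l was at 0 is not drawn. The 5 genes at 99% or more are the 5 lowest, and mt-Nd6, mt-Nd5 and mt-Nd1 show transgenic points below wild-type points.

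The nuclear shift was spread over libraries in a way that single genes share. Wild-type replicate 1 was the lowest wild-type library for 66 of the 88 tested nuclear genes, and wild-type replicate 2 the highest for 60. Transgenic replicate 3 was the lowest of its group for 55 genes and the lowest of all 6 for 50, and wild-type replicate 2 the highest of all 6 for 54. Wild-type replicate 1 and transgenic replicate 3 are also the libraries that hold Y-linked RNA. The part of that difference in the spread within groups was not tested. The mean log2 level of the nuclear genes, set to 0 over the 6 libraries, was 0.006, 0.11 and 0.07 in the wild-type and -0.04, -0.03 and -0.11 in the transgenic libraries. The median coefficient of variation of a nuclear gene was 5.91% within the wild-type and 6.32% within the transgenic group, beside a median shift of -0.13 on the log2 scale.

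Other genes moved with this order of libraries. A list of 20 genes of G2 phase and mitosis had levels of -0.03, 0.39 and 0.39 in the wild-type and -0.19, -0.11 and -0.44 in the transgenic libraries, the same library lowest in each group as for the respiratory chain and wild-type replicate 2 again the highest. All 20 lay below 0, with a median of -0.48, and 20 of 20 had an unadjusted p under 0.05, though 0 passed adjustment. Among all genes tested, 7.7% lay lower at that unadjusted p, and 11.2% of those with at least 10 CPM. Ccnb2, a mitotic cyclin, averaged 83.7 ± 7.2 CPM in wild-type and 59.2 ± 6.19 CPM in transgenic libraries (-0.5 ± 0.094, adjusted p 0.159), and Bub1b, a spindle checkpoint kinase, 296 ± 36.3 and 213 ± 16 CPM (-0.47 ± 0.093, adjusted p 0.159). Their part in the respiratory chain values was not tested.

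**Figure D5:**
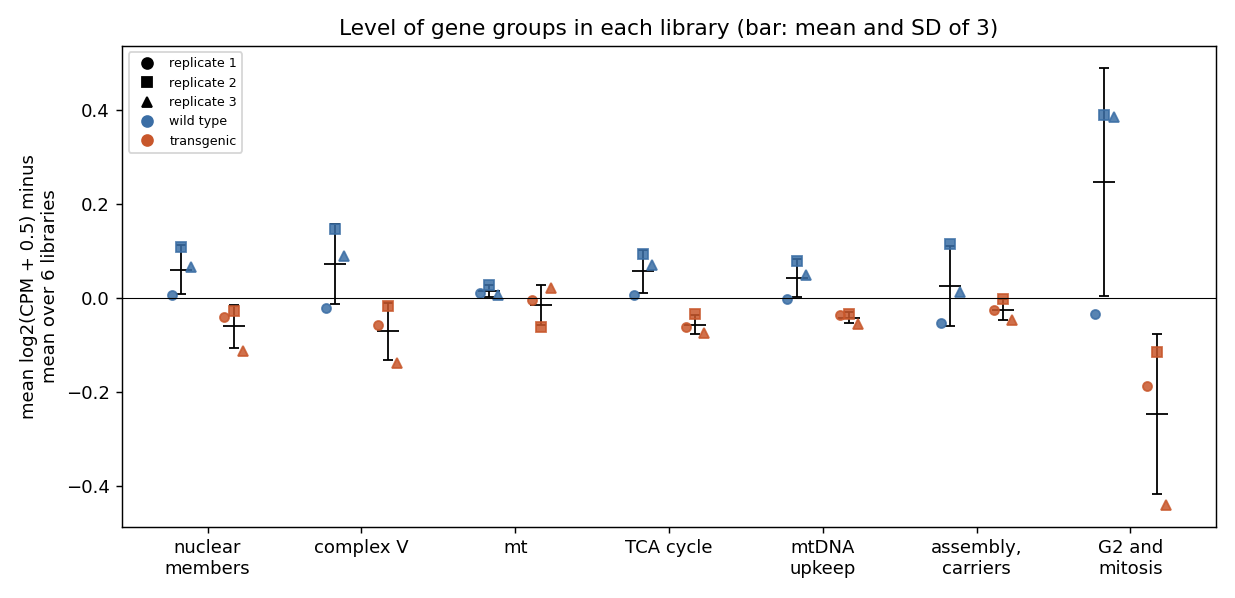
The level of each gene group in each library is the mean over its tested genes of log2(CPM + 0.5), minus the mean over the 6 libraries; lines and bars are the mean and SD of 3. Nuclear respiratory chain and TCA cycle genes show transgenic libraries below wild-type ones without overlap. The groups overlap for complex V, for the mt genes and for assembly factors and carriers. The list of G2 and mitosis genes has the widest spread, with wild-type replicate 1 closest to the transgenic group.

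Genes that work beside the chain were read from lists set by function. Of 18 citric acid cycle genes 15 lay below 0, with a median of -0.12 and 6 lower at an unadjusted p under 0.05. Among all genes tested, 7.7% lay lower by that rule, and 11.2% of those with at least 10 CPM. Fh1, fumarate hydratase, stood at 111, 131 and 112 CPM in wild-type and 93.9, 96.3 and 88 CPM in transgenic libraries (-0.35 ± 0.074, adjusted p 0.159), and Ogdh, a subunit of the oxoglutarate dehydrogenase complex, at means of 216 and 190.002 CPM (-0.18 ± 0.054, adjusted p 0.203). Of 18 carriers and other membrane proteins of mitochondria 18 lay below 0, with a median of -0.11 and 6 lower by that rule. Immt, which shapes the cristae where the chain sits, averaged 151 ± 4.79 and 131 ± 3.91 CPM (-0.2 ± 0.05, adjusted p 0.17), and Timm50, a receptor of the inner membrane import channel, 78.2 and 63.2 CPM (-0.31 ± 0.087, adjusted p 0.195).

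Of 46 tested assembly factors and electron carriers of the chain 30 lay below 0, with a median of -0.05. At an unadjusted p under 0.05, 2 of them (4.35%) lay lower and 0 higher. That share is under the 7.7% of all genes tested that lay lower. One of the 2 was Cycs, cytochrome c itself, which carries electrons from complex III to complex IV. Cycs held 112, 135 and 124 CPM in wild-type and 106, 104 and 95.8 CPM in transgenic libraries, without overlap (-0.28 ± 0.073, adjusted p 0.179). The other was Pdss1, which makes the side chain of ubiquinone (-0.46 ± 0.16, adjusted p 0.261). Of 26 genes that maintain and express mitochondrial DNA 20 lay below 0, with a median of -0.06. At an unadjusted p under 0.05, 5 lay lower and 1 higher, against 1129 lower and 837 higher of all 14653 genes tested. Lonp1, a matrix protease, averaged 189.7 and 163 CPM (-0.22 ± 0.061, adjusted p 0.193), and Mgme1, a nuclease of mitochondrial DNA, 28.6 and 22.1 CPM (-0.37 ± 0.11, adjusted p 0.206). Tfam, which packages that DNA and starts its transcription, was among the 5 at -0.18. Of 12 regulators of mitochondrial biogenesis 7 lay below 0, with a median of -0.02 and 0 at an unadjusted p under 0.05. The transcription factor gene Nrf1 was at -0.02, and the lowest p were those of Gabpb1, a subunit of the GABP factor (-0.12 ± 0.076), and Creb1, which encodes a cyclic AMP response factor (-0.06 ± 0.052).

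Promoters of nuclear respiratory chain genes are known to carry sites for NRF1, GABP and YY1. RefSeq windows on GRCm38.p6, 250 bases before to 50 after the start of a gene, were found for 73 of the 95 nuclear genes, in 78 windows. The NRF1 letters CGCNTGCGC, searched like the others on both strands, were in 29.5% of these windows, against 6.25% of all 32851 windows and 12.6% of the 12591 windows of tested genes. The GABP letters CCGGAAG were in 21.8% of member windows, against 8.86% of all and 17% of those of tested genes. The YY1 letters AAGATGGCG were in 8.97%, against 1.4% and 2.88%, and TATAAA was in 10.3%, against 13.6% and 6.95%. None of the 4 strings contains another, and the NRF1 string can overlap its own reverse complement. The 22 genes with the NRF1 letters, all tested, had a median log2 fold change of -0.15 with 20 below 0, and the 49 tested genes without them a median of -0.13 with 42 below 0.

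Stretches of 100 bases from the RefSeq windows of 3 such genes are given to show the motif in place, with its letters in capitals on either strand. They are the nuclear subunit genes with the smallest p whose match lies wholly before the RefSeq start: Ndufa8 of complex I (2:36049339-36049438), Atp5g2 of complex V (15:102671048-102671147) and Cox6a1 of complex IV (5:115349066-115349165), all on the minus strand of GRCm38.p6 and written 5′ to 3′ toward that start. The first Ndufa8 match begins 29 bases before the RefSeq start, that of Atp5g2 42 bases before it, and the first in Cox6a1 162 bases before it. In GENCODE M21 the Ndufa8 gene begins at 2:36049406 and Atp5g2 at 15:102672352, so their matches lie inside those gene bounds. Cox6a1 begins there at 5:115348981, and its stretch lies before the gene.
Ndufa8: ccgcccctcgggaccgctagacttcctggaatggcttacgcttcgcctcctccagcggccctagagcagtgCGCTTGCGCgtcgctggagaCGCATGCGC
Atp5g2: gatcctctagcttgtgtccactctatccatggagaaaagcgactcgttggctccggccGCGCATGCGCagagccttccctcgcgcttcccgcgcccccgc
Cox6a1: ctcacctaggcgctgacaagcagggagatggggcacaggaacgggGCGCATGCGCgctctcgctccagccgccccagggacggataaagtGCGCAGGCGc

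Markers of other cells were low beside those of DN3 thymocytes. Of 9 genes of cells after beta selection 7 lay below 0, 4 of them with an unadjusted p under 0.05. By that rule 1 of the other 2 was higher, and 7.7% of all genes tested lay lower. Cd4 lay between 6.76 and 7 CPM in the wild-type group and between 2.97 and 4.86 CPM in the transgenic group, and Cd8b1 between 7.21 and 10.7 CPM and between 3.07 and 5.73 CPM, while the summed level of the list, led by Cd27 and Ccr9, was 347 to 412 CPM and 385 to 442 CPM. The muscle and heart list, which shares Cox6a2, Cox7a1 and Cox8b with the respiratory chain, summed to 2.28 to 2.67 CPM and 1.83 to 2.97 CPM, with Myh7 and Mb at 0. Erythroid genes summed to 1.27 to 4.83 CPM and 3.33 to 7.55 CPM, and myeloid genes to 20.7 to 24.9 CPM and 24 to 27.4 CPM with S100a8 at 0. B cell genes summed to 43.2 to 50.9 CPM and 46.7 to 56 CPM with Pax5 at 0, and dendritic genes to 2.07 to 5.04 CPM and 4.62 to 5.72 CPM with Batf3 at 0. The list of NK and innate lymphoid cells, which holds Il7r, summed to 338 to 394 CPM and 297 to 384 CPM with Ncr1 and Klrd1 at 0, and that of fibroblasts and endothelium to 106 to 135 CPM and 117 to 145 CPM with Col1a2 and Pdgfra at 0. Gamma delta T cell genes summed to 140 to 163 CPM and 151 to 165 CPM. Genes of thymic epithelium summed to 81.3 to 89.6 CPM and 81 to 98.1 CPM, and those of earlier progenitors to 71.9 to 93.5 CPM and 88.8 to 108 CPM. The part of such cells in the respiratory chain values was not tested.

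The authors' deposited table lists 353 transcripts of the 108 genes and marks 0 of them as significant, against 111 of all 100144 transcripts. With so few marked in all, the 0 says little about these genes. It tested 319 of them, of which 187 had a log2 fold change below 0, and the smallest q-value among them was 0.998. The share below 0 over all tested transcripts was not counted, so the 187 is not read as a result about these genes. That comparison is per transcript, while the values above sum the transcripts of a gene.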

How the data were processed

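Total RNA of DN3a thymocytes was depleted of ribosomal RNA with Ribo-Zero Gold and sequenced, per the labels' protocols. The submitters' processing notes name TopHat2, Cuffdiff and the mm10 build; the sources used here do not give the annotation, the strand setting or the treatment of reads with several matches. The deposited table gives estimated counts of fragments and FPKM values per transcript and library, per the file headers. A log2 fold change with its p-value or q-value stands beside them, from the authors' own deposited comparison. Counts were summed per symbol and rounded, and 197 genes with a failed-locus status (466 transcripts) were left out. edgeR 4.0.16 (R 4.3.3) kept genes by filterByExpr (minimum count 10, minimum total 15) and scaled libraries by TMM. Its quasi-likelihood test compared 3 transgenic with 3 wild-type libraries, two-sided, adjusted by the Benjamini-Hochberg method over all 14653 genes, with a threshold of 0.05. CPM are TMM-scaled, and standard errors come from the F statistic. The biological coefficient of variation was 19.5%, with 5.61 prior degrees of freedom. Sums and ratios were tested by exact permutation of libraries. At 39022281 to 46985605 fragments per library, counting error is small for all but the rare transcripts. Libraries of a group differed beyond sampling noise (chi-square per gene 16.7 to 44.5), so each was counted as 1 sample.

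The members and lists were chosen with earlier results of these data known. Genes named from the members were all mitochondrially encoded ones, the 3 most abundant and the 2 with the smallest p of each complex, all of Sdh and Cyc1, the isoform families and the 2 assembly factors with the smallest p; of each pathway list the 2 with the smallest p. Ndufab1, Ndufaf6, Ndufv2, Uqcrb, Atp5d, Atp5e, Atp5s, Atp5sl, Tfam and Nrf1 were named after their values were seen. Mitochondrial transcripts were aligned to GENCODE M21 with blastn 2.17.0. The scripts were tested on simulated data. Alternatives were DESeq2 1.42.0, limma 3.58.1 on log2(FPKM + 0.1) and log2(FPKM + 1), other scalings and filters, a covariate for Y-linked RNA, the replicate number as a block, keeping failed loci, and leaving out each library. Leaving out mt-Co1, genes with 31.3% or more of their bases in nuclear copies, or the 2 libraries with Y-linked RNA was chosen after seeing the data.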

Additional observations from a re-analysis of the deposited data

How the results depend on the processing

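The nuclear median was -0.09 at its highest, without wild-type replicate 2, and -0.15 at its lowest, without wild-type replicate 1, over the alternatives run, and the nuclear sum between -0.1 and -0.16 when single libraries were left out. The counts of calls depended on the setting. The number of genes called was 2 in the main test, 474 by DESeq2 (157 higher, 317 lower), 127 with no filter on low counts, 4 by limma on log2(FPKM + 0.1), 256 with the covariate for Y-linked RNA, 260 without the 2 libraries that hold Y-linked RNA and 92 with the failed loci kept. Leaving out 1 library gave 1 to 498 genes. The number of respiratory chain genes called was 1 by DESeq2 and 2 with Y-linked RNA as covariate, then 1 with the failed loci kept (Cox4i1, whose wild-type values are failed estimates), and 0 to 3 with 1 library left out. The mitochondrial median ran from -0.116 to 0.0134 with 1 library left out, and was -0.0374 without the 2 libraries with Y-linked RNA. It was -0.197 over the 6 genes with at most 21.1% of their bases in a near-identical copy. The mitochondrial sum, 0.0081 in log2, ran from -0.0084 (without transgenic replicate 3) to 0.0301 (without wild-type replicate 1) with single libraries left out, was also below 0 without wild-type replicate 2 (-0.0063), and was -0.129 with mt-Co1 left out, which removes most of its fragments. Otherwise the cause was not tested. With the replicate number as a block, 14 genes were called (6 higher, 8 lower) and 0 members. The same-number libraries deviated together with r of 0.103, 0.0566 and -0.00567, so the numbers were not taken to pair them. The paired test of the nuclear sum, by exact sign flips, gave p = 0.25, the smallest p that 3 pairs can give in that test.

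Of 779 alternative values for 49 named genes, 760 kept their direction, 19 in 6 genes reversed and 6 gained a call. With single libraries left out, Cox6a2 ran from -0.426 to 1.66, Cox6b2 from -0.218 to 0.219, Cox7a2l from -0.066 to 0.0146, Uqcrh from -0.0371 to 0.0606, mt-Co3 from -0.221 to 0.0134 and mt-Nd3 from -0.196 to 0.423. Cox6b2 was -0.0114 and mt-Nd3 -0.0219 with the replicate block, mt-Nd3 was -0.0174 by limma on log2(FPKM + 0.1), and Cox7a2l 0.0394 without the 2 libraries with Y-linked RNA. Genes with under 100 fragments per library, Cox6a2, mt-Atp6, mt-Nd3 and mt-Co2 among them, are limited by counting error.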
